A study of Mus musculus with 68 samples.

Results

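Matrix proteases and their inhibitors were followed through mouse growth plate cartilage as 10 named genes: the matrix metalloproteinases Mmp2, Mmp9, Mmp13 and Mmp14, the ADAMTS proteases Adamts1 and Adamts5, the serine protease Htra1, and the tissue inhibitors of metalloproteinases Timp1, Timp2 and Timp3. The genes were chosen by name, and all 10 are among the 23420 gene symbols of the deposited count table. Cells were picked by laser capture from frozen sections of growth plate cartilage of mixed-background mice and sequenced with SMART-seq2, which copies whole messenger RNAs from a few cells into cDNA. No genotype or treatment separates the mice, and their sex is not given in the labels. The groups are the resting (reserve cells), proliferative (columns of dividing cells) and hypertrophic (enlarged cells next to bone) zones at postnatal day 2 (P2) and postnatal day 28 (P28), all from ethanol-fixed sections. A P3 animal and xylene-fixed P28 sections from 2 animals were kept outside the tests. The labels name the P2 animal called D here and the P28 animal called B in the plural, so each may be a pool.

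Matrix metalloproteinases are zinc enzymes that are secreted or held at the cell surface and cut collagens, proteoglycans and other matrix proteins once their inhibitory propeptide is removed. TIMPs bind the active site of these enzymes and block it, and Timp3 also inhibits several ADAM and ADAMTS proteases and stays bound to the matrix. In the growth plate the terminal hypertrophic cartilage is broken down before vessels and bone-forming cells enter it, and loss of Mmp13 or Mmp9 in mice is known to lengthen the hypertrophic zone.

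Promoters are shown for Mmp13, because within the sums tested it was counted in hypertrophic cells only, and for Timp3 and Adamts1, because both had their highest mean in that zone. RefSeq promoters, from 250 bases before to 50 bases after the annotated start, were matched by symbol for 7 members: Mmp13, Mmp14, Adamts1, Htra1, Timp1, Timp2 and Timp3. Capitals mark matches on either strand to the AP-1 motif TGANTCA or the RUNX motif TGTGGT.
Mmp13 promoter, GRCm38.p6, chr9:7272264-7272563, plus strand: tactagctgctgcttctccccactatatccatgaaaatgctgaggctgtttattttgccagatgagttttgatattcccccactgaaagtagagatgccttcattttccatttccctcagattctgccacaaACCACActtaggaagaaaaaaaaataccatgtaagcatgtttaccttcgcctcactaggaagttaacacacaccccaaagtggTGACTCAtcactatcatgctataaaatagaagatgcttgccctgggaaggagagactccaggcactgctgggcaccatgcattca
Timp3 promoter, GRCm38.p6, chr10:86300162-86300461, plus strand: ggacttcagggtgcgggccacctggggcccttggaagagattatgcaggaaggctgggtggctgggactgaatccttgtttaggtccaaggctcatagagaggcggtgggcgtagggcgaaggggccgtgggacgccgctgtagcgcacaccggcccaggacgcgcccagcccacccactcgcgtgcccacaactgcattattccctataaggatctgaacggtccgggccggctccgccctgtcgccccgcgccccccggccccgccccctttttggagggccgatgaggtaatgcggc
Adamts1 promoter, GRCm38.p6, chr16:85803064-85803363, minus strand: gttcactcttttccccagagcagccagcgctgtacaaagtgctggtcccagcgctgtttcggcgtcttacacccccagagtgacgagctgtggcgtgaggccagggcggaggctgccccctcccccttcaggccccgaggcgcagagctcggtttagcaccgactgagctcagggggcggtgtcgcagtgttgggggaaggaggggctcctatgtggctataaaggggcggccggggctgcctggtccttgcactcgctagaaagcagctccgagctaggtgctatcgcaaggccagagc
The Mmp13 window held 1 AP-1 match, which begins 35 bases before the start, and 1 RUNX match on the opposite strand, which begins 118 bases before it. Of the 32851 promoters in the same table, 7.81% held the AP-1 motif, 16.8% the RUNX motif and 1.42% both. Mmp13 was the 1 member window of 7 with both. The RUNX motif was also found in the windows of Mmp14 and Htra1, and neither motif was found in those of Timp3, Adamts1, Timp1 or Timp2. The windows differ in base composition, with a G and C content of 43.7% for Mmp13, 67% for Timp3 and 64.7% for Adamts1. A match is a description of the letters and does not show binding.

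Libraries held 748 to 3347722 counts. Of 51 ethanol-fixed P2 and P28 libraries, the 26 with at least 100000 counts were summed by animal and zone into 21 sums, 4 per zone at P2 and 3 per zone at P28. Levels below are TMM-normalised counts scaled to a library of 1000000 (CPM), and animals are named by letter within an age. P2 animals A, D and G and P28 animals A, B and D gave all 3 zones, and P2 animals C, E and F gave 1 zone each. With the animal as a block, the sums of C, E and F add nothing to a fitted zone difference. The zone fold changes and p-values at P2 thus rest on animals A, D and G, while means and levels include C, E and F. Col10a1, the collagen that defines hypertrophic chondrocytes, was at 5826 to 99345 CPM in all 7 hypertrophic sums and at most 20.3 CPM in the other P2 sums. The P28 resting sum of animal A, labelled resting, held Col10a1 at 8159 CPM, and the P28 proliferative sums held 127 to 3387 CPM. The 10 osteoclast markers summed to at most 350 CPM in any sum, with between 0 and 5 of them counted. Xist, the RNA of the inactive X chromosome in female cells, differed between zones of 2 named animals: the resting, proliferative and hypertrophic sums of P2 animal G held 128, 0 and 0 counts and those of P28 animal D 0, 267 and 2. Whether the libraries of each of these labels come from 1 mouse was not tested beyond that. Calls were therefore also computed without P2 resting library 8, without P28 proliferative library 9 and without P28 resting library 1 (the Col10a1 case). They were also computed without the animal as a block. In the zone fit the p-values use a spread shared over genes, not each gene's own spread between its sums. Since these are bulk samples, fewer cells of a type and less RNA per cell cannot be told apart.

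**Figure D1:**
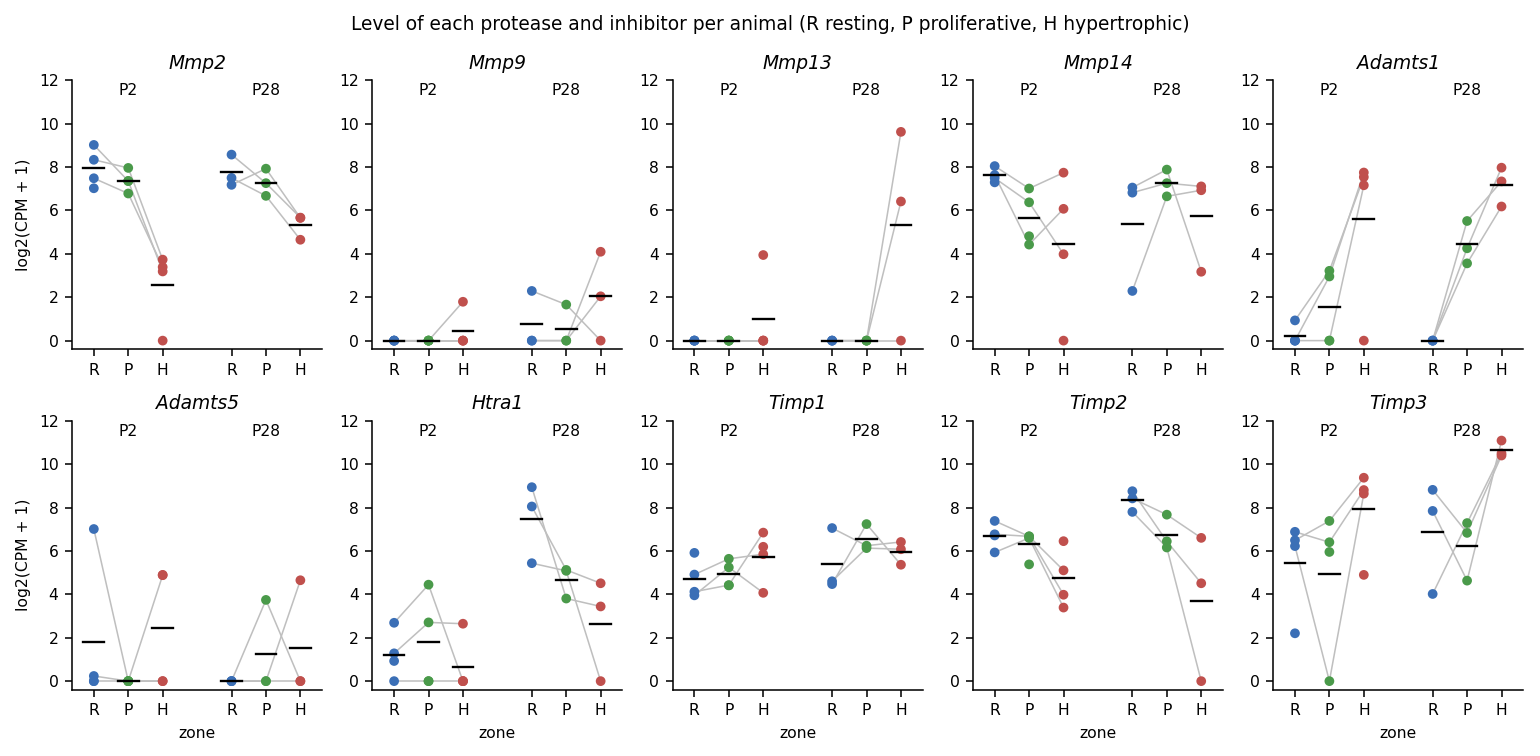
Each panel plots 1 gene as log2(CPM + 1) against zone (R resting, P proliferative, H hypertrophic) at P2 and P28; points are animal sums, grey lines join the zones of 1 animal and black bars are means of the plotted values. Timp3 and Adamts1 were highest in H at both ages, Mmp2 and Timp2 had their lowest means in H, and Mmp13 was counted in 2 of 3 P28 hypertrophic sums and in 1 of 4 at P2.

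Of the 10 members, 7 passed the low-count filter of the zone fit and were tested. Mmp9, Mmp13 and Adamts5 did not pass and were not tested. Taking the mean of both ages, hypertrophic against proliferative cells gave higher Timp3 and Adamts1 and lower Mmp2. That is 3 of 7 tested members past an edgeR adjusted p of 0.05, against 6.64% of the 6958 genes tested. Resting against hypertrophic cells gave 4 of 7, with Mmp2 and Timp2 higher and Timp3 and Adamts1 lower, against 7.49% of genes. Resting against proliferative cells gave 1 of 7, Adamts1, against 0.891% of genes. The median log2 fold change of the 7 tested members was -0.28, 0.50 and 0.45 in these 3 contrasts, beside -0.49, 0.10 and -0.36 for all genes tested. Another scaling (relative log expression) moved the all-gene median to -0.47, 0.36 and -0.08, so small differences should be read against that shift.

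At single ages fewer members passed. Hypertrophic against proliferative cells gave 3 of 7 at P2 (Timp3, Adamts1 and Mmp2), against 2.31% of genes, and 1 of 7 at P28 (Timp3), against 1.12%. Resting against hypertrophic cells gave 2 of 7 at P2 (Mmp2 and Adamts1), against 3.77% of genes, and 2 of 7 at P28 (Adamts1 and Timp3), against 1.77%. Resting against proliferative cells gave 0 of 7 at each age by edgeR, against 0.259% and 0.561% of genes; at an unadjusted p under 0.05 the count was 1 at each age, Adamts1, and DESeq2 called 0 at P2 and 1 at P28. Whether a zone difference changed with age was tested as an interaction, and 0 of 7 members passed in each contrast by edgeR and by DESeq2. The background was 0% of genes for hypertrophic against proliferative, 0.144% for resting against proliferative and 0.273% for resting against hypertrophic cells. At an unadjusted p under 0.05 these counts were 0, 1 and 1, both times Htra1. The shares of genes given above are edgeR calls at the adjusted threshold. The unadjusted and DESeq2 counts therefore cannot be set against them and are not a result about the members.

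Between the ages, 1 of 6 members tested differed in resting cells, Htra1, against 0.872% of the 3327 genes tested there. In proliferative cells 0 of 6 differed, against 0.679% of genes, and in hypertrophic cells 0 of 3, against 0.102%. DESeq2 also called 0 in these 2 zones, and at an unadjusted p under 0.05 the counts were 0 and 1, the latter Timp3. Here too the shares are of edgeR calls at the adjusted threshold, so these counts cannot be set against them.

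**Figure D2:**
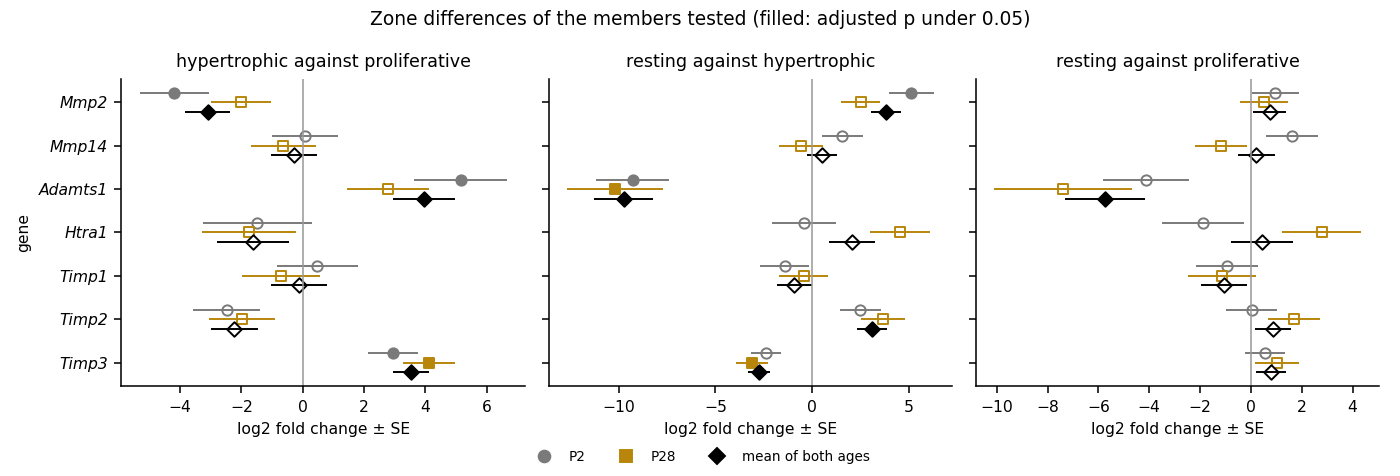
Log2 fold change ± SE from the edgeR fit for the 7 tested members (rows) in 3 zone contrasts (panels) at P2, at P28 and as the mean of both ages; filled symbols are past an adjusted p of 0.05. Timp3 and Adamts1 lie right of 0 and Mmp2 left of 0 in hypertrophic against proliferative cells, and 0 lies within 1 SE of the mean-of-both-ages estimates of Mmp14 and Timp1 in hypertrophic against proliferative cells.

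Timp3 (chr10:86300372-86349506, plus strand, GRCm38) was the 1 TIMP of 3 that was higher in hypertrophic than in proliferative cells at each age. At P2 it was at 398, 28.8, 663 and 447 CPM in the hypertrophic sums of animals A, C, D and G. The proliferative sums of animals A, D, E and G held 0, 166, 61 and 83.6 CPM, and the resting sums of animals A, D, F and G held 73.8, 89, 3.61 and 117 CPM. Within each of the 3 animals with all zones the hypertrophic value was the highest, while animal C, whose hypertrophic sum held 20032 counts outside the symbols Rn45s, Lars2 and Glra2, lay among the other zones. At P28 the hypertrophic sums of animals A, B and D held 1349, 1442 and 2176 CPM. The proliferative sums held 113, 155 and 23.8 CPM and the resting sums 450, 15.2 and 229 CPM, so that the hypertrophic group did not overlap either zone. The log2 fold change of hypertrophic against proliferative cells was 2.95 ± 0.82 (SE) at P2 (edgeR adjusted p = 0.0224) and 4.12 ± 0.86 at P28 (adjusted p = 6.73e-04). As the mean of both ages it was 3.54 ± 0.59 (adjusted p = 4.93e-07). Resting against hypertrophic cells gave -2.39 ± 0.78 at P2 (adjusted p = 0.0554, not past), -3.09 ± 0.82 at P28 (adjusted p = 0.0173) and -2.74 ± 0.57 as the mean of both ages (adjusted p = 9.22e-05).

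The 2 mean-of-both-ages differences of Timp3 passed the threshold in all 22 alternatives run. Leaving out P2 animal C, E or F could change a zone test only through the filter, the scaling and the spread, so passing there says little. The same holds for a difference at 1 age when an animal of the other age is left out. The P2 difference of Timp3 from proliferative cells passed in 11 of 22, and was lost without P2 animal A, D or G, without P28 animal B and without P28 proliferative library 9, among others. The P28 difference from proliferative cells passed in 20 of 22, and was lost without P28 animal A (adjusted p = 0.0763) and without the animal block (adjusted p = 0.072). The P28 difference from resting cells passed in 11 of 22, where the adjusted p ranged up to 0.364, and was lost with RLE scaling, DESeq2, no filter, no block, both depth minimums and P3 sums, and without P2 animal D, P28 animal B, P28 animal D or P28 proliferative library 9. The difference between resting and proliferative cells was 0.80 ± 0.59 (adjusted p = 0.735). In hypertrophic cells Timp3 averaged 384 ± 263 CPM (SD, n = 4) at P2 and 1656 ± 453 CPM (SD, n = 3) at P28. All 3 P28 values lay above all 4 P2 values, and the age difference of 2.08 ± 0.78 on the log2 scale did not pass (edgeR adjusted p = 0.494). Timp3 lies on the opposite strand within the span of Syn3, a neuronal synapsin gene, and the full GENCODE vM21 annotation gives 1733 exon bases that both genes share. SMART-seq2 does not mark strand, so reads there cannot be told apart. Over the 7 hypertrophic sums the table holds 14 Syn3 counts beside 2761 Timp3 counts, and over the 7 resting sums 76 beside 936.

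Timp2 (chr11:118301069-118355740, minus strand), which inhibits metalloproteinases and also takes part with Mmp14 in the activation of Mmp2, ran the other way. At P28 the resting sums of animals A, B and D held 222, 431 and 342 CPM, the proliferative sums 70.5, 86.0 and 203 CPM and the hypertrophic sums 0, 21.8 and 96.2 CPM. The resting group lay above both other groups. At P2 the resting sums of animals A, D, F and G held 60.1, 108, 104 and 166 CPM, the proliferative sum of animal E 40.7 CPM and that of animal A 95.8 CPM, with D and G slightly higher, and the hypertrophic sums of animals A, C, D and G 9.49, 86.5, 14.8 and 33.4 CPM. The P2 resting and proliferative groups overlapped, and the hypertrophic group overlapped both through the sum of animal C. Resting against hypertrophic cells differed by 3.09 ± 0.79 on the log2 scale as the mean of both ages (edgeR adjusted p = 0.00307). This passed in 19 of 22 alternatives and was lost without either of P28 animals A and B and with a minimum of 200000 counts. Hypertrophic against proliferative cells gave -2.23 ± 0.77 (adjusted p = 0.0529), just outside the threshold.

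Timp1 (chrX:20870166-20874735, plus strand), an inducible inhibitor of metalloproteinases, was counted in all 21 sums and did not pass in any zone or age comparison. At P2 it averaged 29.8 ± 20.6 CPM in resting, 31.6 ± 13.8 in proliferative and 64.6 ± 40.5 in hypertrophic cells (SD, n = 4 each). At P28 the means were 58.8 ± 63.3, 98.1 ± 45.4 and 63.7 ± 22.2 CPM (SD, n = 3 each). The mean-of-both-ages differences were -0.12 ± 0.91 for hypertrophic against proliferative and -1.04 ± 0.91 for resting against proliferative cells on the log2 scale. With errors of this size a 2-fold difference was not detectable. Timp1 lies within the span of Syn1 on the opposite strand without shared exon bases.

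Mmp2 (chr8:92827291-92853420, plus strand), gelatinase A, which cuts denatured collagen and type IV collagen, was high in resting and proliferative cells and low in hypertrophic cells. At P2 the resting sums of animals A, D, F and G held 178, 322, 129 and 518 CPM. The proliferative sums of animals A, D, E and G held 109, 248, 163 and 163 CPM, and the hypertrophic sums of animals A, C, D and G 9.49, 0, 12.3 and 8.12 CPM. All 8 resting and proliferative values at P2 lay above all 4 hypertrophic values. At P28 the resting sums of animals A, B and D held 180, 380 and 144 CPM, and the hypertrophic sums 24.1, 49.9 and 49.4 CPM. The proliferative sums of B and D held 152 and 242 CPM, and that of A, from 43 counts, lay below these and above every hypertrophic sum. The hypertrophic group again did not overlap the others. The log2 fold change of hypertrophic against proliferative cells was -4.19 ± 1.12 at P2 (edgeR adjusted p = 0.0148). At P28 it was -2.01 ± 0.97 (adjusted p = 0.385) and as the mean of both ages -3.10 ± 0.74 (adjusted p = 0.0017).

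The change of this Mmp2 difference between ages, 2.18 ± 1.41, did not pass (edgeR adjusted p = 0.889). Resting against hypertrophic cells gave 5.14 ± 1.16 at P2 (adjusted p = 8.59e-04), 2.52 ± 0.998 at P28 (adjusted p = 0.201, not past) and 3.83 ± 0.76 as the mean of both ages (adjusted p = 3.76e-05). The P2 differences from proliferative and resting cells passed in 18 and 20 of 22 alternatives. The first was lost without P2 animal A, D or G and with a minimum of 50000 counts outside Rn45s, Lars2 and Glra2. The second was lost without P2 animal D or G. The mean-of-both-ages difference from resting to hypertrophic cells passed in 22 of 22 alternatives, and the mean-of-both-ages difference from proliferative cells in 21 of 22, lost without P2 animal D (adjusted p = 0.0509). Resting and proliferative cells differed by 0.73 ± 0.66 (adjusted p = 0.798). The perichondrium and fibroblast markers, a class of cells that can be cut with the edge of the resting zone, summed to 990 to 6302 CPM in the P2 resting sums, with 5 to 8 of 9 genes counted, and to 278 to 935 CPM in the P2 proliferative sums. In the P28 resting, proliferative and hypertrophic sums that list was at 132 to 776, 744 to 1415 and 426 to 1979 CPM. The part of these cells in the levels of Mmp2 was not tested.

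Mmp14 (chr14:54431612-54445364, plus strand) is the membrane-type metalloproteinase that cuts collagen at the cell surface and activates pro-Mmp2. Its P2 resting sums were close together, at 197, 179, 156 and 263 CPM in animals A, D, F and G, against 20.5, 82.0, 27.1 and 128 CPM in the proliferative sums of animals A, D, E and G. The hypertrophic sums of animals A, C, D and G spread from 0 in animal C to 213 CPM in animal G, with 66.4 and 14.8 CPM in A and D. The P2 resting group lay above the proliferative group and overlapped the hypertrophic one. At P28 the order differed: the resting sums of animals A, B and D held 132, 112 and 3.89 CPM, the proliferative sums 235, 152 and 99.4 CPM and the hypertrophic sums 8.03, 137 and 121 CPM. Resting against proliferative cells was 1.62 ± 1.02 at P2 and -1.19 ± 1.03 at P28 on the log2 scale. The difference between the ages, -2.81 ± 1.45, did not pass (edgeR adjusted p = 0.715, unadjusted p = 0.0522). No zone or age comparison of Mmp14 passed.

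Mmp13 (chr9:7272514-7283331, plus strand), collagenase 3, which cuts fibrillar collagen including type II collagen, was counted in few samples. The P28 hypertrophic sums of animals A, B and D held 98, 27 and 0 counts, or 787, 84.3 and 0 CPM. All 7 resting and all 7 proliferative sums held 0 counts, and the 4 P2 hypertrophic sums held 1 count in all, in animal C. Against a floor of 3 counts over the P28 group, the P28 hypertrophic level was at least 86.9-fold higher than the proliferative and at least 31.5-fold higher than the resting level. Without animal A the bounds were at least 16.7-fold and 5.64-fold, and without animal B at least 54.8-fold and 27.5-fold. They cover counting error only. In library terms, all 98 counts of animal A came from 1 library and all 27 of animal B from 1 of its 2 libraries, since the other held 0. Hypertrophic libraries of P28 animal A that were left out of the sums held 47, 4 and 1 further Mmp13 counts. The 10 osteoclast markers summed to 8.03 to 43.7 CPM in the P28 hypertrophic sums, with 1 to 3 counted. The 8 osteoblast and osteocyte markers summed to 88.4, 824 and 351 CPM in animals A, B and D, with 2 or 3 counted, against 164, 18.1 and 47.6 CPM in the proliferative and 47.7, 76.1 and 11.7 CPM in the resting sums. Their part in the Mmp13 level was not tested. Acp5, the acid phosphatase of osteoclasts, held at most 1 count in any hypertrophic sum.

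Mmp9 (chr2:164940780-164955850, plus strand), gelatinase B, which is known from osteoclasts and other invading cells, held 1 count in the P2 hypertrophic sums and 0 in the other P2 sums. At P28 it held 1, 1 and 3 counts over the resting, proliferative and hypertrophic sums. No fold is given, since all groups lie at or under 3 counts.

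Adamts1 (chr16:85793827-85803113, minus strand), a secreted protease that cuts aggrecan and versican, was counted mainly on the hypertrophic side of the plate. At P2 the hypertrophic sums of animals A, C, D and G held 142, 0, 185 and 214 CPM, from 15, 0, 75 and 447 counts. The proliferative sums of animals A, D, E and G held 0, 8.30, 0 and 6.76 CPM, and the 4 resting sums held 1 count in all, in animal D. The 0 of the shallow hypertrophic sum of animal C overlapped the other zones. At P28 the hypertrophic sums of animals A, B and D held 161, 250 and 71.6 CPM, the proliferative sums 44.7, 18.1 and 10.8 CPM and the resting sums 0 counts each. The 3 zones did not overlap at P28, in the order resting, proliferative, hypertrophic.

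Over the pooled counts, Adamts1 at P28 was at least 32.5-fold higher in hypertrophic and at least 4.84-fold higher in proliferative than in resting cells, against a floor of 3 counts over the group. At P2 the single resting count gives a ratio of 1861 for hypertrophic against resting cells, with a 95% counting interval of 333 to 73658. Without P2 animal G, which gave 447 of the 537 hypertrophic counts, the ratio was 571 (99.8 to 22784), and without animal D, which held the resting count, at least 555. The P28 bound for hypertrophic cells was at least 13.8-fold without P28 animal B, and that for proliferative cells at least 2.36-fold without P28 animal A. The log2 fold change of hypertrophic against proliferative cells was 5.15 ± 1.51 at P2 (edgeR adjusted p = 0.0334) and 3.96 ± 1.01 as the mean of both ages (adjusted p = 0.00363). At P28 alone it was 2.78 ± 1.34 (adjusted p = 0.382). The fitted differences from resting cells depend on the prior count, since resting cells held 1 count in 7 sums. Their tests passed for resting against hypertrophic cells at P2 (adjusted p = 1.50e-04), at P28 (adjusted p = 0.00633) and as the mean of both ages (adjusted p = 3.62e-08). The mean-of-both-ages test of resting against proliferative cells passed as fitted (adjusted p = 0.0327) and in 9 of 22 alternatives. It was lost without P2 animal D or G, P28 animal A or B, and each of the 3 single libraries taken out, among others. The P2 difference of resting from hypertrophic cells passed in 21 of 22, lost without P2 animal G (adjusted p = 0.0726). The P28 one passed in 17 of 22. It was lost without P28 animal A or B, without P28 resting library 1 and under both depth minimums. The mean-of-both-ages difference between hypertrophic and proliferative cells passed in 21 of 22, lost without P28 animal B (adjusted p = 0.0546), and the P2 difference in 14 of 22, lost without P2 animal A, D or G and without P28 animal A or B, among others.

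Adamts5 (chr16:85856173-85901828, minus strand), the main aggrecan-cutting ADAMTS of mouse cartilage, lies 53.1 kb from Adamts1 on the same strand. It was counted mainly in 1 resting sum: P2 animal A held 47 counts, or 128 CPM, while the resting sums of animals D, F and G held 0, 0 and 1 counts. The P2 hypertrophic sums of animals A and C held 3 and 2 counts, and at P28 the proliferative sum of animal B held 11 and the hypertrophic sum of animal A 3. No zone was thus shown to carry more Adamts5, and at these counts it cannot be judged whether the neighbouring pair shares a pattern. In P2 animal A the resting sum had 47 Adamts5 and 0 Adamts1 counts, the hypertrophic sum 3 and 15.

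Htra1 (chr7:130936111-130985660, plus strand), a secreted serine protease that cuts matrix proteins such as fibronectin and aggrecan, was the member that differed with age. In the resting zone it was at 0, 5.45, 0.903 and 1.43 CPM in P2 animals A, D, F and G, and at 42.3, 264 and 490 CPM in P28 animals A, B and D. All 3 P28 values lay above all 4 P2 values. The log2 difference was 7.22 ± 1.29 (edgeR adjusted p = 0.00144). It passed in 21 of 22 alternatives, which gave 5.52 to 9.05, and was lost without P28 animal D (adjusted p = 0.179). In P28 resting animals A, B and D the osteoclast markers summed to 10.6, 5.07 and 350 CPM. The blood and marrow markers summed to 95.2, 35.5 and 797 CPM there, and the chondrocyte markers to 60141, 63020 and 40219 CPM. The part of other cell types in the Htra1 level of animal D was not tested. Xist counts in the resting sums were 879, 0, 5 and 128 in P2 animals A, D, F and G and 183, 173 and 0 in P28 animals A, B and D. Sex may thus be spread unevenly over both age groups, and its part in the age difference was not tested.

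In the other zones Htra1 did not pass. Proliferative cells held 0, 20.8, 0 and 5.53 CPM in P2 animals A, D, E and G and 32.9, 33.9 and 13.0 CPM in P28 animals A, B and D, a log2 difference of 1.66 ± 1.39 (edgeR adjusted p = 0.998). Hypertrophic cells held 0 in 3 of 4 P2 sums and 5.26 CPM in animal G, and 0, 21.8 and 9.87 CPM at P28. Their level was too low to enter the age test. Whether the age difference of Htra1 was larger in resting than in proliferative cells was tested as an interaction, 4.67 ± 2.26, and did not pass (adjusted p = 0.705). Among the P28 ethanol sums, the resting value was the highest zone in each of the 3 animals, and resting against hypertrophic cells gave 4.54 ± 1.56 (adjusted p = 0.114). Htra1 overlaps the span of Fgfr2 on the opposite strand with no shared exon bases.

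Per kilobase of exon, which allows members to be set against each other, the leading member changed with zone and age. In P2 resting cells the levels in CPM per kb ran from Mmp2 (93.2 ± 56.8) to Mmp14 (47.5 ± 11), Timp1 (33.5 ± 23.2), Timp2 (29.5 ± 11.7) and Timp3 (15.0 ± 10.2), all SD with n = 4. Neighbours in that order differed by less than the larger of their SDs, apart from Timp2 and Timp3. In P28 resting cells Htra1 led at 130 ± 110, followed by Timp2 (89.5 ± 28.3), Mmp2 (76.3 ± 41.4) and Timp1 (66.2 ± 71.3), again without a gap beyond the spread (SD, n = 3). In P2 hypertrophic cells Timp3 (81.4 ± 55.8) and Timp1 (72.7 ± 45.6) did not differ beyond their spread, and Timp1 was the higher in animals A and C, followed by Adamts1 at 27.7 ± 19.4 (SD, n = 4). In P28 hypertrophic cells Timp3 stood at 351 ± 96.0, with Mmp13 at 109 ± 162, Timp1 at 71.7 ± 25 and Adamts1 at 32.9 ± 18.2 CPM per kb. The lowest P28 hypertrophic Timp3 value exceeded the Timp1 value of every animal, and Mmp13 did not differ from Timp1 beyond its spread. Proliferative cells were led by Mmp2 at P2 (55.5 ± 18.6) and by Timp1 at P28 (110 ± 51.2), with Mmp2 at 53.6 ± 23.2 there.

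Across the 21 sums, members with opposite zone patterns were negatively related. Pearson's r of log2 CPM was 0.70 for Adamts1 with Timp3, -0.71 for Adamts1 with Timp2, -0.53 for Adamts1 with Mmp2 and 0.57 for Mmp2 with Timp2. The sums share animals, zones and depth, so these values are a description. The genes with the most similar profile were C1qtnf3 (r = 0.91), Scrg1 and 1500015O10Rik (both 0.88) for Mmp2, and Loxl4, Tuba1a and Unc5b (all 0.90) for Adamts1. For Timp3 they were Fam43a and Uspl1 (both 0.80) and Hdac5 (0.78), for Timp2 Kdm6b and Auts2 (both 0.81) and Ucma (0.79), and for Htra1 Hhip (0.87), Tgfbr2 and 2810001G20Rik (both 0.85). Mmp14 was nearest to Fat1 (0.88), Rab28 (0.87) and Gpr108 (0.83), and Timp1 had the weakest neighbours, Akap5 (0.70), Laptm4b and Mrps6 (both 0.61).

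The P3 animal and the xylene sections, whose libraries did not enter the tests, gave values for the same genes. The P3 animal and P28 animal E gave no library to the tests. P28 animal D also gave ethanol sums to them, so its xylene values are not from a further animal. They are given as CPM of the counts outside Rn45s, Lars2 and Glra2, and have 1 animal per age and fixation, or 2 for xylene. Timp3 in resting, proliferative and hypertrophic cells was at 94.3, 316 and 716 CPM in the P3 animal. It was at 78.7, 178 and 1119 CPM in P28 animal E, and at 167, 300 and 1374 CPM in P28 animal D when the hypertrophic library described below was left out (1083 CPM with it). The hypertrophic value was the highest in all 3 animals. Mmp2 in the same order was at 1067, 208 and 27.2 CPM in the P3 animal, 651, 162 and 2.90 CPM in P28 animal E and 592, 476 and 75.7 CPM in P28 animal D. It was lowest in hypertrophic cells of all 3, although with the doubted library animal D stood at 767 CPM, the highest of its zones.

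Adamts1 in those animals was at 88.4, 0.619 and 200 CPM (P3), 6.95, 6.31 and 173 CPM (P28 animal E) and 1.04, 12.2 and 125 CPM (P28 animal D, 83.4 CPM with the doubted library). The P3 resting library, with 165 Adamts1 counts, was the 1 resting library in which the gene was plentiful. Timp2 was at 150, 207 and 21.7 CPM, 248, 89 and 46.4 CPM, and 612, 438 and 58.6 CPM (801 CPM with the doubted library), again lowest in hypertrophic cells when that library is left out. Htra1 in resting, proliferative and hypertrophic cells was at 0, 34 and 1.21 CPM in the P3 animal and at 211, 68 and 65.5 CPM in P28 animal E. In P28 animal D it was at 78.8, 83.3 and 20.7 CPM (182 CPM with the doubted library), so resting cells were highest in 1 of these 3 animals. For P28 animal D, resting Htra1 was 882 CPM in ethanol and 78.8 CPM in xylene sections. Libraries under this 1 animal label thus differed by more than 10-fold. Fixation, capture and a possible difference of mouse cannot be told apart here.

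**Figure D3:**
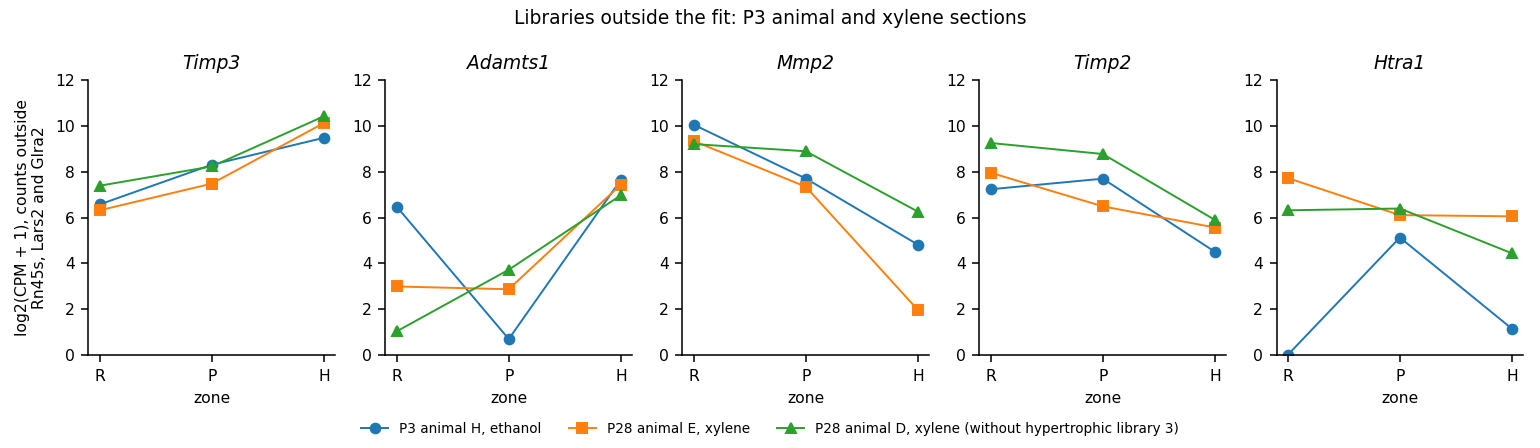
Lines give log2(CPM + 1), over the counts outside Rn45s, Lars2 and Glra2, for 5 members by zone (R, P, H) in the P3 animal and 2 xylene-fixed P28 animals, 1 sum per point and no replicates, with hypertrophic library 3 of animal D left out. Among the points shown Timp3 is highest in H (716, 1119 and 1374 CPM) and Mmp2 lowest (27.2, 2.90 and 75.7 CPM), while with that library Mmp2 of animal D is 767 CPM in H. Animal D also gave ethanol sums to the tests.

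The library labelled P28 hypertrophic xylene 3, of animal D, went against its label. It held Col10a1 at 41.8 CPM and Col2a1, the main cartilage collagen, at 89.3 CPM, where the other 4 xylene libraries labelled hypertrophic held 16706 to 93074 and 68543 to 152711 CPM. Its 8 chondrocyte markers summed to 913 CPM, its 8 osteoblast and osteocyte markers to 80332 CPM and its 9 perichondrium and fibroblast markers to 154611 CPM, with Col1a1, the main bone collagen, at 79764 CPM. In this library Mmp13 was at 1365, Mmp2 at 1764, Mmp14 at 1818, Mmp9 at 41.8, Adamts5 at 71.7, Timp2 at 1872, Timp1 at 863 and Htra1 at 414 CPM. Each of these 8 members was higher there than in any of the other 4 libraries. Timp3 at 662 CPM and Adamts1 at 23.3 CPM lay within the range of the other 4, which was 455 to 1851 and 3.10 to 219 CPM.

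**Figure D4:**
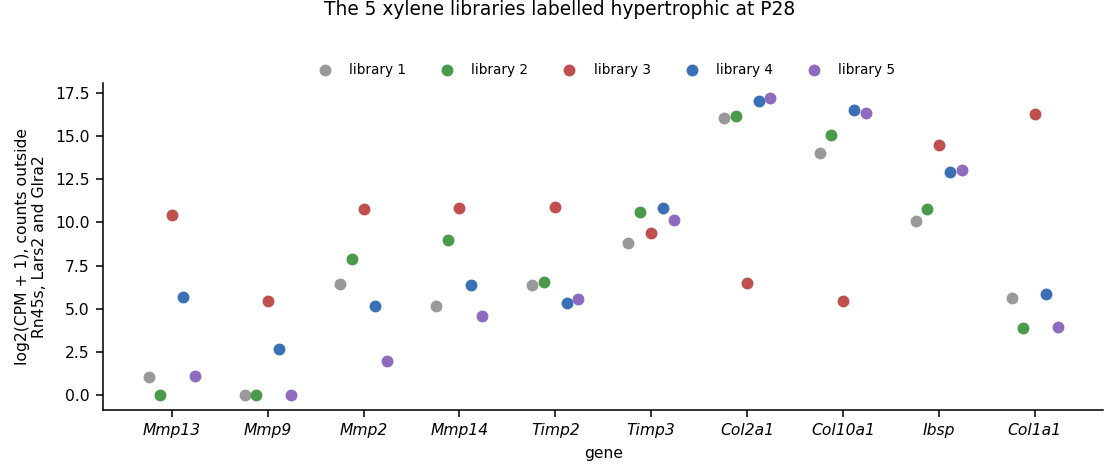
Points give log2(CPM + 1), over the counts outside Rn45s, Lars2 and Glra2, for 6 members and 4 marker genes (x axis) in each of the 5 xylene libraries labelled hypertrophic at P28. Library 3 has Col2a1 at 89.3 and Col10a1 at 41.8 CPM, Col1a1 at 79764 CPM, and the highest Mmp13, Mmp9, Mmp2, Mmp14 and Timp2.

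The other 4 xylene hypertrophic libraries differed among themselves in Adamts1 and Mmp13. Adamts1 was at 3.10 and 8.33 CPM in libraries 1 and 2 and at 219 and 173 CPM in libraries 4 and 5. Ibsp, bone sialoprotein, which is made by late hypertrophic cells and bone cells, was at 1065 and 1755 CPM in the first pair and 7877 and 8334 CPM in the second, and Col10a1 at 16706 and 33762 CPM against 93074 and 83353 CPM. Mmp13 was at 1.03, 0, 50.9 and 1.16 CPM in libraries 1, 2, 4 and 5, so it was plentiful in 1 library of the second pair only. Libraries 1, 2 and 4 are labelled as animal D, so the Adamts1 values under that label ranged from 3.10 to 219 CPM between captures of the same labelled zone.

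Beyond the members, few other matrix proteases were measurable. The counts of this and the next 3 paragraphs should be read beside the share of all 6958 genes past the threshold. As the mean of both ages it was 6.64% for hypertrophic against proliferative cells. For resting against proliferative cells it was 0.891%, and for resting against hypertrophic cells 7.49%. In lists with few tested genes, a count of 0 lies near these shares. Of 19 other MMP genes 1 passed the filter, Mmp16, and of 17 other ADAMTS genes 3 passed (Adamts3, Adamts9 and Adamts10). Among these 0 passed the test in any of the zone comparisons. Of 13 cathepsins, the lysosomal proteases, 9 were tested and 0 passed in the mean-of-both-ages contrasts. Of 12 ADAM and astacin proteases 6 were tested: Adam15 was higher in hypertrophic than in proliferative cells (4.12 ± 1.31, edgeR adjusted p = 0.0326), and Adam10, a membrane sheddase, and Adam15 were lower in resting than in hypertrophic cells. The median log2 fold change of the tested genes of that list was 1.43 in hypertrophic against proliferative cells, beside -0.49 for all genes tested.

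Of 15 other serine proteases and plasminogen system genes 5 were tested and 1 passed, the proprotein convertase Pcsk6, which cuts precursor proteins including growth factors and proteases. Pcsk6 was at 900, 621 and 649 CPM in the P28 hypertrophic sums of animals A, B and D, against 14.1, 26 and 4.32 CPM in the proliferative sums. At P2 it was at 142, 57.7, 165 and 331 CPM in the hypertrophic sums of animals A, C, D and G and at most 75.2 CPM in proliferative ones. This P2 difference did not pass by edgeR, and the value of animal C lay under the proliferative maximum. Pcsk6 passed as lower in resting than in proliferative cells at P2, and the change of that difference with age passed as well. The hypertrophic group at P28 overlapped neither other zone, and the mean-of-both-ages difference from proliferative cells was 4.73 ± 0.80 (edgeR adjusted p = 7.09e-07). The resting sum of P2 animal F, at 124 CPM, was the resting exception at P2.

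Of 19 other protease inhibitors 7 were tested. Cst3, cystatin C, which inhibits cathepsins, was higher in hypertrophic than in proliferative cells (2.24 ± 0.48, edgeR adjusted p = 2.43e-04), and A2m, the broad protease trap alpha-2-macroglobulin, was lower (-3.01 ± 0.96, adjusted p = 0.0329). A2m was higher in resting than in hypertrophic cells (4.92 ± 0.95, adjusted p = 2.01e-05). The inhibitors thus did not move as 1 block: Timp3 and Cst3 stood on the hypertrophic side and Timp2 and A2m on the resting side of the resting against hypertrophic contrast.

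All 14 cartilage matrix genes of the substrate list were tested. In hypertrophic against proliferative cells 2 were higher, Col10a1 and Fn1 (fibronectin, 3.22 ± 0.46), and 2 lower, Fmod (fibromodulin, -3.63 ± 0.47) and Bgn (biglycan). In resting against proliferative cells Dcn (decorin, 3.57 ± 0.65) and Fn1 (2.46 ± 0.45) were higher and Comp (-2.28 ± 0.37) and Hapln1 (-1.42 ± 0.31) lower. The edgeR adjusted p of the genes given with values here lay between 1.28e-11 and 0.00131. In resting against hypertrophic cells 3 were higher (Bgn, Dcn and Fmod) and 4 lower, among them Acan, aggrecan (-1.56 ± 0.32, adjusted p = 9.07e-05). Of 16 regulators and uptake receptors known for Mmp13, 13 were tested. Mef2c (2.08 ± 0.51) and Fos (4.43 ± 1.21) were higher and Runx3 (-3.40 ± 0.79), Sox9 (-1.69 ± 0.53) and the collagen receptor Mrc2 (-3.12 ± 1.01) lower in hypertrophic than in proliferative cells. Runx2 was lower in resting than in hypertrophic cells (-2.49 ± 0.73, adjusted p = 0.0135).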

How the data were processed

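Whole-number counts per gene symbol were deposited by the authors for laser-captured growth plate cells, in 100 columns for 68 libraries, and no column was left unused. Columns under 1 title (32 libraries with 2 columns) were summed as repeat runs. Cutadapt, STAR 2.5.2b, featureCounts 1.5.3 and the mm10 build are named per the submitters' processing notes; for the annotation, the strand setting and reads with several matches, the authors' choice was not stated in those notes. Ethanol libraries of P2 and P28 with at least 100000 counts were summed by animal and zone. Library totals ran from 748 to 3347722 counts, and 25 of 51 lay under that minimum.

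Zones were tested with edgeR 4.0.16 (quasi-likelihood, TMM, filterByExpr, Benjamini-Hochberg over all genes tested) in R 4.3.3, with the animal as a block (8 residual degrees of freedom). Animals that gave 1 zone add nothing to the zone differences of this fit. Ages were tested within each zone with a term for the deposit set, the 2 sets of libraries told apart by their labels (4 residual degrees of freedom). CPM is relative to the TMM-scaled sum of the genes kept by the filter. SE is the log2 fold change divided by the square root of F. In the zone fit that error uses a spread shared over genes, so the 8 residual degrees of freedom alone do not set the p-values. The pairing comes from the animals named in the labels; deviations of zones of 1 animal from their group means correlated at -0.00358 to 0.187. The scripts were tested on simulated counts. Intervals and floors cover counting error only, at 95% and 3 counts.

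Alternatives were RLE scaling, DESeq2 1.42.0, no low-count filter, no block, other depth minimums, leaving out Rn45s, Lars2 and Glra2, adding xylene or P3 sums, and leaving out each animal; 4 that take out single libraries were chosen after seeing the data. The members and lists were chosen with earlier results of these data known. All 10 members are named; of each list, genes past the threshold are named (1 gene of the inhibitor list is not reported here), at most 6 with values, and for likeness the 3 genes with the highest Pearson's r. Positions and exon lengths are from GENCODE vM21 and promoters from RefSeq, both on GRCm38.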

Additional observations from a re-analysis of the deposited data

Results flagged for a closer look

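Among 25 groups of 4 sums examined, 6 held 1 animal far from the other 3, where chance marks about 1 in 20 groups of normally distributed values. In 5 of them the other sums were at or near 0, so that a single count can stand apart and the number cannot be set against that rate: Mmp9 at 2.46 CPM in P2 hypertrophic animal D, Mmp13 at 14.4 CPM in P2 hypertrophic animal C, Adamts1 at 0.908 CPM in P2 resting animal D, Adamts5 at 128 CPM in P2 resting animal A and Htra1 at 5.26 CPM in P2 hypertrophic animal G. The first 3 rest on 1 count each. The sixth was Timp2, at 40.7 CPM in P2 proliferative animal E, below the other 3.

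Mmp9, Mmp13 and Adamts5 were also counted, above 3 counts, in the P3 and xylene libraries, which the tests did not use. The library labelled P28 hypertrophic xylene 3, which held bone rather than cartilage markers, had 88 Mmp9, 2874 Mmp13 and 151 Adamts5 counts. Xylene hypertrophic library 4, with cartilage markers, had 9 Mmp9 and 87 Mmp13 counts, and hypertrophic library 5 had 33 Adamts5 counts. In resting xylene libraries there were 19 Adamts5 counts (library 3) and 15 Mmp13 counts (library 4). The P3 hypertrophic library had 12 Mmp9 and 5 Mmp13 counts. Ethanol libraries under the depth minimum held 47 and 4 Mmp13 counts (P28 hypertrophic libraries 1 and 3). They held 5 and 7 Adamts5 counts at P2 (resting library 2 and proliferative library 3), and 4 each at P28 (resting library 5 and proliferative library 3).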

How the results depend on the processing

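No member's difference that had passed reversed. The number of all genes called also changed between settings, as given below for hypertrophic against proliferative cells at P2. The member counts here are not set beside the share of all genes in each setting, so they are not a result about the members alone. The mean-of-both-ages differences of Timp3 between hypertrophic and proliferative cells and of Mmp2, Adamts1 and Timp3 between resting and hypertrophic cells passed in all 22 alternatives. These include leaving out P2 animals C, E and F in turn, which gave 1 zone each and hardly bear on a zone difference. Of hypertrophic against proliferative cells at P2 (3 members called), 1 was called with no low-count filter, 0 with a minimum of 50000 counts outside Rn45s, Lars2 and Glra2, and 1 with a minimum of 200000. At P28 (1 called), the count was 0 without the replicate block, 2 without Rn45s, Lars2 and Glra2, 2 with xylene sums, 3 with xylene sums but not hypertrophic library 3, and 2 without P28 resting library 1. Of resting against proliferative cells at P28 (0 called), DESeq2 called 1. Of resting against hypertrophic cells at P28 (2 called), the count was 4 with DESeq2 (which called Mmp2, Htra1, Timp2 and Adamts1 and not Timp3) and with xylene sums lacking library 3. It was 1 with no filter, without the replicate block, with P3 sums, and without P28 resting library 1 or P28 proliferative library 9, and 0 under both depth minimums. The 1 call of resting against proliferative cells as the mean of both ages became 0 with RLE scaling, no filter, both depth minimums, P3 sums, xylene sums lacking library 3, and without each of P2 resting library 8, P28 resting library 1 and P28 proliferative library 9. The cause was not tested.

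Leaving out 1 animal gave 0 to 3 calls for hypertrophic against proliferative at P2, 0 to 2 at P28 and 2 to 4 as the mean of both ages. It gave 0 to 3 for resting against hypertrophic at P2, 0 to 3 at P28 and 3 to 4 as the mean, 0 to 1 for resting against proliferative as the mean, and 0 to 1 for age in resting cells. The other comparisons stayed at 0. The Timp2 difference between resting and hypertrophic cells gave adjusted p-values up to 0.117. Over all genes, hypertrophic against proliferative cells at P2 gave 161 calls with edgeR, 370 with DESeq2, and 75, 32 and 28 without P2 animals A, D and G. Mmp9, Mmp13 and Adamts5 did not pass the low-count filter and were given no test.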
